A study of Mus musculus with 3 samples.

Results

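The regions described here are bidirectional promoters: places where a pair of protein-coding genes on opposite strands point away from each other, with the minus-strand gene on the left and their 5′ ends at most 1000 bp apart. Each region was the span between both annotated 5′ ends plus 500 bp on each side. The gene annotation of the mm10 mouse genome held 734 such pairs on chromosomes 1 to 19, which together used 1448 of 20807 protein-coding genes, or 6.96%. A further 446 pairs whose starts overlapped, with the plus-strand gene beginning on the left, were not members. The comparison set was 18486 single promoters, which had no protein-coding start on the other strand within 1000 bp. In the pairs the distance between 5′ ends ranged from 1 to 987 bp with a median of 128 bp. Regions of 40 pairs overlapped the region of another pair and 20 genes belonged to more than 1 pair, so the members were not fully separate. Just inside the distance limit lay Btf3l4/Txndc12 at 987 bp, Asphd1/Sez6l2 at 981 bp and Zfyve26/Rad51b at 978 bp, with 503, 131 and 298 fragments under vehicle. Just outside it lay Gpr108/Trip10 at 1009 bp, Sgsm2/Tsr1 at 1011 bp and Dirc2/Hspbap1 at 1019 bp, with 559, 293 and 292 fragments.

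The study measured RNA and open chromatin in the same nuclei of hearts from wild-type mice. Mice had received vehicle, the tyrosine kinase inhibitor sunitinib, which is a cancer drug, or sunitinib with Yoda1, a compound that opens the mechanosensitive channel PIEZO1. The labels carry 3 months without saying whether that is an age or a treatment time, and they give neither strain, sex, dose nor the number of hearts per library. Open chromatin was read by ATAC, in which the transposase Tn5 cuts accessible DNA and each unique cut-out piece is counted as 1 fragment. The RNA arm was not analysed here. There was 1 library per group, so the spread between hearts is unknown, no test between groups was made, and all 95% intervals cover counting error only.

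Promoters of mammalian genes are mostly open chromatin free of nucleosomes, and transcription can start from such a region in both directions. Where both directions lead into genes, the stretch between the starts is shared, and many such promoters are CpG islands without a TATA box. Head-to-head arrangements are known among genes of DNA repair, mitochondria and histones, and the collagen IV genes are the textbook case in basement membranes.

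The stretches between both starts are shown for 12 pairs that the values below turn on: pairs with much or little open chromatin, known head-to-head pairs, and pairs at the ends of the comparison of sunitinib with vehicle. They are RefSeq sequence of build GRCm38.p6, plus strand, 5′ to 3′, from the minus-strand gene's 5′ end to the plus-strand gene's 5′ end. Capitals mark exact matches on either strand to 9 motifs. The SP/KLF box was read as GGGCGG, the box bound by the factor NF-Y as CCAAT, the site of the ETS factors as CCGGAAG, the YY1 site as AAGATGGC and the cyclic AMP response element (CRE) as TGACGTCA. The E-box was read as CACGTG, the box bound by the TATA-binding protein as TATAAA, and the NRF1 and ZBTB33 sites as their palindromes of 10 bases. Matches to different motifs may overlap and then form 1 run of capitals. A match is a description of letters and does not show a bound factor.
Col4a4/Col4a3 (chr1:82586849-82586921): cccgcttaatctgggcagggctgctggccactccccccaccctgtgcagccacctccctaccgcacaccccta
Hjurp/Trpm8 (chr1:88277633-88277661): aggggagggacgagagggagggtccgccg
Dcaf6/Mpc2 (chr1:165460475-165460637): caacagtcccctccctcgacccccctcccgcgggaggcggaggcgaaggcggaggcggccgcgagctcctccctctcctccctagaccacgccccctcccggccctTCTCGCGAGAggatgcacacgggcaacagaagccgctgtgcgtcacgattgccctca
Hist2h2ac/Hist2h2be (chr3:96220880-96221119): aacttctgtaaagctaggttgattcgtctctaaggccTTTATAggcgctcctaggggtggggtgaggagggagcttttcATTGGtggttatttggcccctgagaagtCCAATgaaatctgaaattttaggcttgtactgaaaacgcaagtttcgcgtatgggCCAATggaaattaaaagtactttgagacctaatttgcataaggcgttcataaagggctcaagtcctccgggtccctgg
Aimp2/Pms2 (chr5:143909847-143909964): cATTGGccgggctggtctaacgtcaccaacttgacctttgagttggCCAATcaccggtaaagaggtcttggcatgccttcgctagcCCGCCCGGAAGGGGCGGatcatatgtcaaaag
Mrps12/Sars2 (chr7:28741820-28741992): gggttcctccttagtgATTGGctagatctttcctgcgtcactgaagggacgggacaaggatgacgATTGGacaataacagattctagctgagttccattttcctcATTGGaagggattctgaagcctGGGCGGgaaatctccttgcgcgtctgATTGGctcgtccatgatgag
Sdhd/Timm8b (chr9:50603812-50603910): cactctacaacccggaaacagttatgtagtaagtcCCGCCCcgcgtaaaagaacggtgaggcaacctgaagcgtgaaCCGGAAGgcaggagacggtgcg
Brca1/Nbr1 (chr11:101551955-101552149): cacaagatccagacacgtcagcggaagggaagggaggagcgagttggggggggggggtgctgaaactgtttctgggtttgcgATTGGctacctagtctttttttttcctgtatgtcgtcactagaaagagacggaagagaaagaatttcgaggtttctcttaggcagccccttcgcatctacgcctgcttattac
Hist1h2bl/Hist1h2ai (chr13:21716143-21716422): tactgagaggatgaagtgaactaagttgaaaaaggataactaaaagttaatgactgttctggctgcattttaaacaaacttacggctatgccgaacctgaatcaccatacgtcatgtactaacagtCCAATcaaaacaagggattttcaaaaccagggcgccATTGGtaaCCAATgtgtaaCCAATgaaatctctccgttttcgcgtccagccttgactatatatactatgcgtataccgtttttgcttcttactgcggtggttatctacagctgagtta
Hist1h2bf/Hist1h2ad (chr13:23574196-23574381): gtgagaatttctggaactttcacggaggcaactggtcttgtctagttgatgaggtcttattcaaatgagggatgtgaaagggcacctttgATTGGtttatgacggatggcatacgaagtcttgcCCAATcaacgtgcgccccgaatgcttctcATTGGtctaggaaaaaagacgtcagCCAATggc
Tsc2/Nthl1 (chr17:24632630-24632680): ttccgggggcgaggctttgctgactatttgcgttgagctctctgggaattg
Nfya/Oard1 (chr17:48409906-48410014): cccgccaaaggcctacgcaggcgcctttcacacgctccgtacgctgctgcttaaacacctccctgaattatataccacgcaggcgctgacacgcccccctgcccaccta

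Several of these stretches held more than 1 CCAAT box. The stretch between Mrps12 (a protein of the mitochondrial ribosome) and Sars2 (the mitochondrial seryl-tRNA ligase) held 4 matches, all on the minus strand, at positions 17, 66, 106 and 154 counted from 1 at the left end. That between Hist1h2bf and Hist1h2ad also held 4, and that of Hist1h2bl and Hist1h2ai held 4 as well, both with matches on either strand. The stretch between Aimp2 (a scaffold of tRNA ligases) and Pms2 (mismatch repair) held 2 CCAAT matches. From position 87 it also held an SP/KLF match, an ETS match from position 91 that overlaps it, and a further SP/KLF match from position 98, directly next to the ETS match. Sdhd (an anchor of respiratory complex II) and Timm8b (a mitochondrial import chaperone) had 1 SP/KLF and 1 ETS match between them. The stretches of Col4a4/Col4a3, Hjurp/Trpm8, Tsc2/Nthl1 and Nfya/Oard1 held none of the 9 motifs. Nfya codes for a subunit of NF-Y itself.

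A promoter window of 300 bases was found for 621 of the 734 pairs (84.6%) by matching 5′ ends within 100 bp. These windows, from 250 bases before to 50 after a RefSeq start, were rich in CpG, with a median of 8 CpG per 100 bases against 2.33 over all 31396 windows of the table on the same chromosomes. The ratio of observed to expected CpG was above 0.6 in 554 pair windows (89.2%) against 36.4% of all windows. SP/KLF matches were in 69.1% of pair windows and 36.0% of all, CCAAT in 44.4% and 37.3%, and ETS in 28.3% and 9.0%. YY1 matches were in 8.53% and 2.75%, CRE in 5.48% and 1.83%, NRF1 in 3.38% and 0.968%, ZBTB33 in 2.74% and 0.462%, and the E-box in 11.4% and 7.14%. The TATA box went the other way, at 4.51% of pair windows and 13.6% of all. Among CpG-rich windows alone the SP/KLF shares were 73.1% and 72.4% and those of the E-box 11.9% and 11.2%, so these gaps closed or nearly so. The TATA gap narrowed to 3.25% and 5.96%, and that of NRF1 to 3.61% and 2.42%. ETS was at 30.1% and 18.8%, YY1 at 9.39% and 4.76% and ZBTB33 at 3.07% and 1.19%. CCAAT was at 43.7% and 35.6% and CRE at 5.96% and 3.7%. The table held a window for 55.6% of the single promoters, too few for a comparison with them, and the set of all windows includes those of the pairs. A window of 475 pairs also covered both starts of the pair, and the part of this in the motif shares was not tested.

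In 475 pairs the window covered the whole stretch between the starts, whose median length was 89 bases there. SP/KLF matches lay in 215 of these stretches (45.3%), CCAAT in 142 (29.9%) and ETS in 70 (14.7%). None of the 9 motifs occurred in 135 of them. YY1 matches, present in 53 of the 621 windows, lay in only 2 of these stretches. A TATA box lay in 9, of which 5 were among the 8 histone stretches that could be read whole.

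The vehicle library held 18704581 fragments and the sunitinib library 23653823. The sunitinib plus Yoda1 library held 583792 from 209296546 read pairs, which is about as many read pairs as under sunitinib (210143978). Called nuclei (barcodes with at least 1000 fragments and further criteria) numbered 2684 under vehicle, 3850 under sunitinib and 12 with Yoda1, and 21 nucleus barcodes were found in both the vehicle and the sunitinib library. Enrichment of cuts at start sites was 18.2, 20.7 and 14.5. Because many fragments of the third library shared positions between barcodes, only the 258020 that rested on 100 or more read pairs were used, and only in sums. Nuclei were grouped without tiles that hold protein-coding starts, and groups were named from marker genes: cardiomyocyte-, vascular endothelial-, endocardial-, fibroblast-, mural-, epicardial-, myeloid- and T lymphoid-like. The endocardial-like group also carried 3 of 5 lymphatic endothelial markers. T lymphoid-like nuclei made up 8.20% of nuclei under vehicle and 32.8% under sunitinib. Over the whole libraries 11 of 12 T lymphoid markers were at least 1.5-fold higher under sunitinib, and their summed level went from 33.9 to 81.1 CPM (fragments per 1000000 fragments of the library or group) with none of them at 0 in either library.

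Whole head-to-head regions held more fragments than windows of the same width at single promoters in each library. This did not hold under vehicle and sunitinib once fragments were divided by 2 starts and set against single promoters of like CpG. Under vehicle a pair region held a median of 297 fragments, against 51 in windows of the same width centred on single starts. The median pair stood at percentile 86.8 of these windows, ties counted at their middle. The pairs above the single promoters' median numbered 703, or 95.8%, against 50% of the single promoters themselves. Above the 75th percentile lay 77.0% of pairs against 25.1%, and above the 90th 40.2% against 10%. Under sunitinib the pairs held a median of 467 fragments against 70, the median percentile was 87.7, and 702 pairs (95.6%) lay above the single promoters' median against 49.9%. In the selected fragments of the sunitinib plus Yoda1 library a pair held a median of 4 fragments against 0 at single promoters. At this depth the comparison is only of regions with at least 1 fragment, which were 656 pairs (89.4%) and 49.2% of single promoters.

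**Figure D1:**
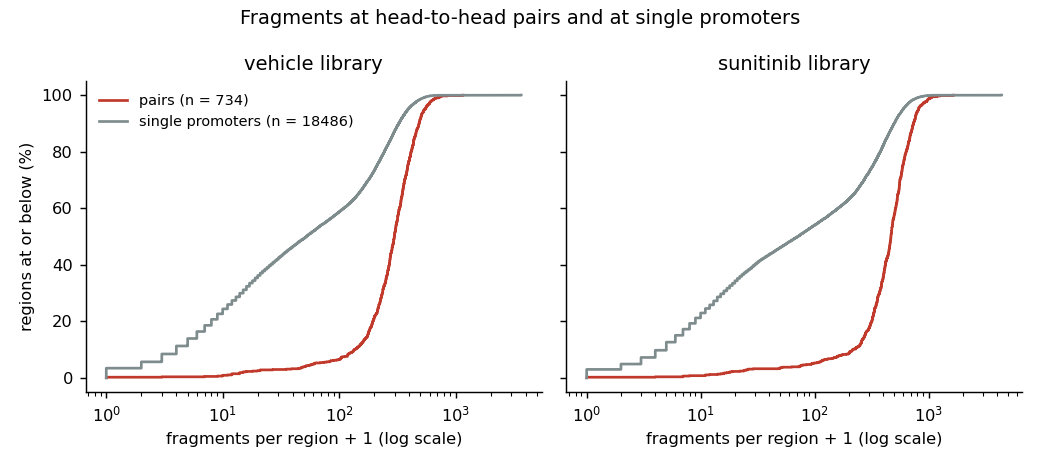
Share of regions (vertical axis, percent) at or below a number of fragments (horizontal axis, fragments plus 1, log scale) for the 734 pairs and the 18486 single promoters, vehicle on the left and sunitinib on the right. Single promoters are drawn with a window of the pairs' median width. The curve of the pairs rises late and steeply around its medians of 297 and 467 fragments, while the curve of the single promoters climbs over the whole range.

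A pair region holds a pair of starts and is richer in CpG, and the comparison was repeated with each of these and with both. With each pair's fragments divided by its 2 start sites, the median was 148.5 under vehicle and 233.5 under sunitinib. The median percentile was then 65.3 and 66.2, with 92.8% and 93.1% of pairs above the single promoters' median but 17.6% and 16.8% above the 75th percentile. Single promoters with a like number of CpG in the first 150 transcribed bases held medians of 182 and 280 fragments, against 299 and 470 in the 715 pairs with enough matches. The median percentile among those was 81.2 and 82.3, and 88.7% and 88.5% of pairs lay above their median. With both together the pairs no longer stood higher. Per start the 715 pairs held medians of 149.5 and 235 fragments against the 182 and 280 of CpG-matched single promoters. Their median percentile was 43.9 and 44.7, and 39.7% and 38.9% of pairs lay above the matched median. CpG-poor windows went with lower levels among the pairs too: the 67 pairs with a CpG-poor window had a median of 7.54 CPM per kb under vehicle, against 14.1 in the 554 CpG-rich ones. Pairs with a TATA match had 10.1 (28 pairs) and those without had 13.9.

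The distance between the starts went with the level. Pairs at 1 to 100 bp had a median percentile of 82.7 under vehicle (306 pairs), those over 100 to 200 bp 88.9 (200 pairs), those over 200 to 300 bp 90.7 (96 pairs) and those over 300 to 500 bp 94.9 (64 pairs). At over 500 to 1000 bp it was 86.5 (68 pairs). Per kb the closest pairs had 13.2 CPM and those over 300 to 500 bp had 15.7, while the farthest had 9.74. The same order held under sunitinib, where the percentiles were 83.5, 88.4, 91.2, 94.8 and 84.7.

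Fragments per kb were highest, in both libraries, at the pair of Hjurp (the chaperone that loads the centromeric histone) and Trpm8 (the cold-sensing channel), whose 5′ ends lay 28 bp apart. It held 1163 fragments under vehicle and 1659 under sunitinib, in chr1:88277133-88278161 of mm10, or 60.5 and 68.3 CPM per kb. Its Trpm8 start is that of an upstream transcript. A window at the nearest well-supported coding start of Trpm8, 25622 bp away, held 22 and 32 fragments. Next came Cryzl1/Itsn1 with 855 and 1273 fragments (Itsn1 is an endocytic scaffold), L3hypdh/Jkamp with 674 and 1060, and Usp5/Cdca3 with 623 and 986 (Usp5 takes apart free ubiquitin chains). Cdca2/Kctd9 held 605 and 1029, Nfya/Oard1 628 and 980, and Dcaf6/Mpc2 643 and 972, where Mpc2 is a subunit of the mitochondrial pyruvate carrier. Phtf2/Tmem60, Hdlbp/Sept2 and Deaf1/Tmem80 completed the 10 highest, with 557, 654 and 558 fragments under vehicle.

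At the low end, 9 pairs under vehicle and 8 under sunitinib fell below the 25th percentile of single promoters. Zfp558/Mbd3l1 held 2 and 3 fragments, 4930430F08Rik/1700017N19Rik 6 and 7, and Gm20075/Gm17190 10 and 6. Hist1h2bq/Hist1h2ao and Hist1h2ap/Hist1h2br held 0 in both libraries. Both lie in a stretch of near-identical histone copies, where reads that fit several places can be lost, so their level is uncertain. Levels also differed with the annotation of the 5′ ends. In 480 pairs both 5′ ends lay within 200 bp of a coding start with the annotation's highest transcript support level (a well-supported start). Of these, 97.7% were above the single promoters' median under vehicle. In 102 pairs at least 1 end lay over 1000 bp from any such start, with 89.2% above it and medians of 253 against 298 fragments.

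Cuts were densest between both starts, although that stretch held only 30.6% of the cuts of the regions. Cuts per base in the stretch between the starts were 2.31 times those in the 500 bp on either side, with vehicle and sunitinib summed. The ratio was 2.96 for pairs up to 100 bp apart, 2.93 over 100 to 200 bp, 3.01 over 200 to 300 bp, 2.65 over 300 to 500 bp and 1.68 over 500 to 1000 bp. Fragments of 150 to under 300 bp, long enough to span a nucleosome, had their midpoints gathered 120 to 140 bp inside each gene. Both genes of a pair had this peak at 130 bp when their starts were up to 100 bp apart, with 8.87 (plus-strand gene) and 9.91 (minus-strand gene) times the level of the lowest point near the start. In the distance ranges over 100 bp the peak was 3.96 to 5.94 times the lowest point. At single promoters the peak was at 120 bp, 4.73 times the lowest point.

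How the middle of the stretch was filled differed with the distance. Within 50 bp of the midpoint the nucleosome-length midpoints reached 2.06 CPM per kb and region in pairs up to 100 bp apart and 2.72 over 100 to 200 bp. They reached 12 over 200 to 300 bp and 15.9 over 300 to 500 bp, where this central peak was the highest of the profile. Over the same steps the mean number of cuts there went from 76.3 to 72.6, 61.6 and 47.9 CPM per kb and region, and to 24.9 over 500 to 1000 bp. The midpoints count any fragment of 150 to under 300 bp, including those that reach from 1 start to the other.

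**Figure D2:**
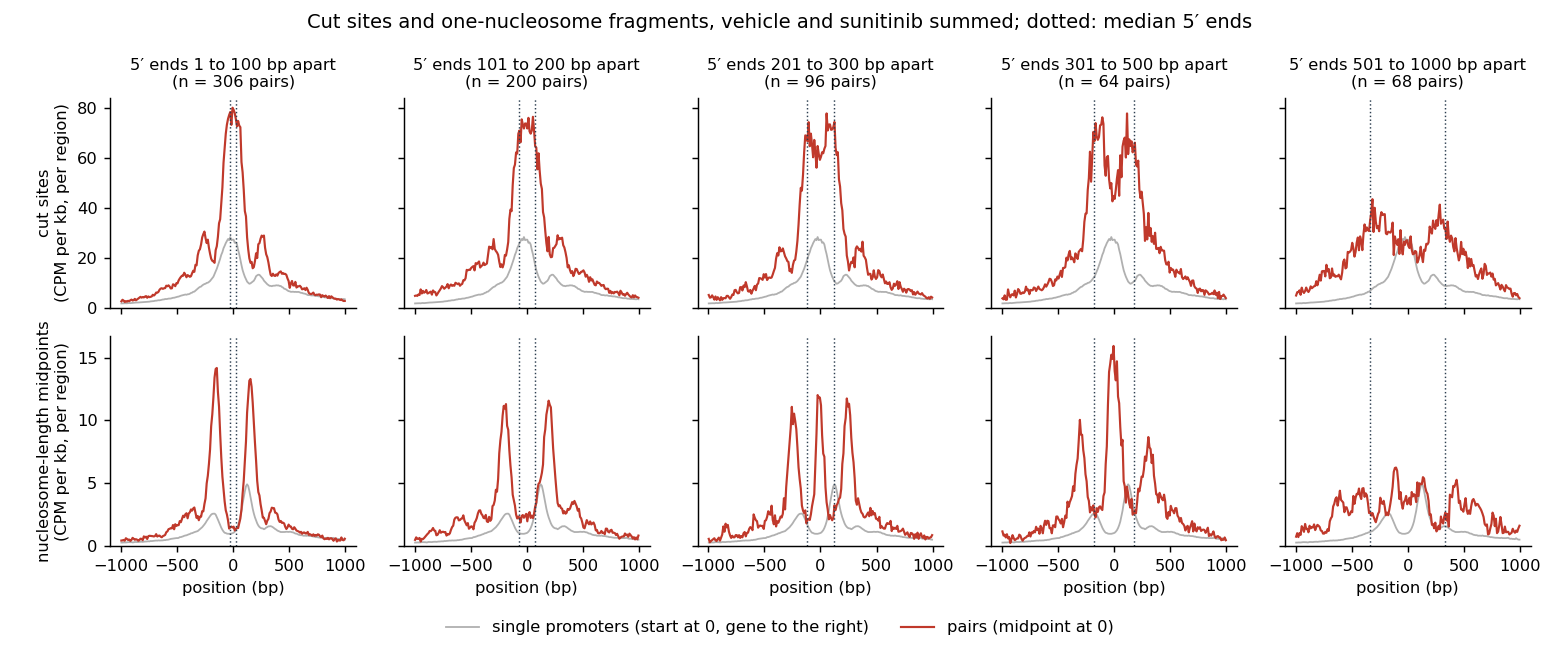
Cut sites (upper panels) and midpoints of 150 to under 300 bp fragments (lower panels), in CPM per kb and region, against the distance from the midpoint of the pair in bp, for 5 ranges of distance between 5′ ends. Grey lines are single promoters with the start at 0 and the gene to the right, and dotted lines mark the median 5′ ends. Cuts form 1 peak up to 200 bp and a pair of peaks at the starts beyond it, and a central peak of midpoints stands out in pairs over 200 to 500 bp apart.

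Of the 64 pairs that were 500 bp or more apart and had enough cuts, 29 had more cuts at both starts than in the middle, 28 at 1 start only and 7 at neither. The single highest point of a pair lay between its starts in 50 of 63 pairs over 300 to 500 bp and in 148 of 296 at up to 100 bp, where the stretch itself is short. Both sides were not equal in every pair. Among 705 pairs with at least 200 cuts, 220 (31.2%) had at least 2-fold more cuts in the 500 bp on 1 gene's side than on the other's, 108 toward the plus-strand gene and 112 toward the minus-strand gene.

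Pair regions took 1.17% of all fragments under vehicle (interval 1.16 to 1.17%), 1.43% under sunitinib (1.42 to 1.43%) and 1.13% in the selected fragments of the sunitinib plus Yoda1 library (1.09 to 1.17%). Single promoters took 11.7%, 13.9% and 11.8%, so both kinds were highest under sunitinib, while from vehicle to the third library the pairs' share was lower and that of the single promoters slightly higher. As a share of fragments in both kinds of promoter window, the pairs took 9.07% (9.04 to 9.11%), 9.33% (9.30 to 9.36%) and 8.74% (8.44 to 9.05%), so that the spread between libraries was narrower. In called nuclei the shares of all fragments were 1.71% and 1.79% for vehicle and sunitinib, and outside the lymphoid groups 1.67% in both. Without the read-pair minimum the third library stood at 1.02%. Its version of the authors' pipeline and its selection of fragments also differed from the other libraries, and this cannot be told apart from the treatment.

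By group of nuclei, T lymphoid-like nuclei gave pair regions the largest share of their fragments, 2.09% (2.05 to 2.13%) under vehicle and 2.14% (2.12 to 2.16%) under sunitinib. These intervals overlapped those of myeloid-like nuclei, 2.01 to 2.09% and 2.07 to 2.16%, so the order of these groups is not settled. Myeloid-like nuclei gave 2.05% and 2.12%, vascular endothelial-like 1.85% and 1.96%, mural-like 1.75% and 1.76%, epicardial-like 1.67% and 1.57%, endocardial-like 1.60% and 1.67%, and fibroblast-like 1.57% and 1.64%. Cardiomyocyte-like nuclei gave the smallest share, 1.37% and 1.29%. Single promoters were also lowest there, at 13.7% and 13%. They were highest in T lymphoid-like and myeloid-like nuclei, at 18.9% and 18.8% under vehicle and at 19.1% and 19.6% under sunitinib. Under sunitinib the order of these groups was the opposite of that of the pairs, whose intervals overlapped. Median start-site enrichment was lowest in cardiomyocyte-like nuclei too (20.9 and 20.8). It did not follow the pairs' order among the other groups, with 26.3 and 26.4 in T lymphoid-like, 24 and 24.6 in myeloid-like, 27.8 and 29.3 in vascular endothelial-like and 28.1 and 28.2 in mural-like nuclei. The part of this enrichment in the shares was not tested.

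Between sunitinib and vehicle, 709 pairs had at least 100 fragments over both libraries. Of these, 29 were at least 1.5-fold higher in CPM under sunitinib and 2 were at least 1.5-fold lower, or 4.09% and 0.282%. The background over 9729 single promoters was 8.07% higher and 0.802% lower, and over 11932 promoters of all protein-coding genes 7.53% and 0.67%. Both shares of the pairs were thus below the background, which itself fell with depth. With a minimum of 200 fragments it was 5.95% and 0.111% of single promoters, against 3.76% and 0% of pairs. Pairs held more fragments per region than single promoters, and the part of this in the gap was not tested. The pairs' median log2 ratio was 0.29 and that of the single promoters 0.26, so promoters as a whole were shifted upward under this scaling. Relative to the single promoters' median, 3 pairs were higher and 6 lower, with 3.01% and 3.85% of single promoters. A region's CPM cannot tell more nuclei of a type from more fragments per nucleus.

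**Figure D3:**
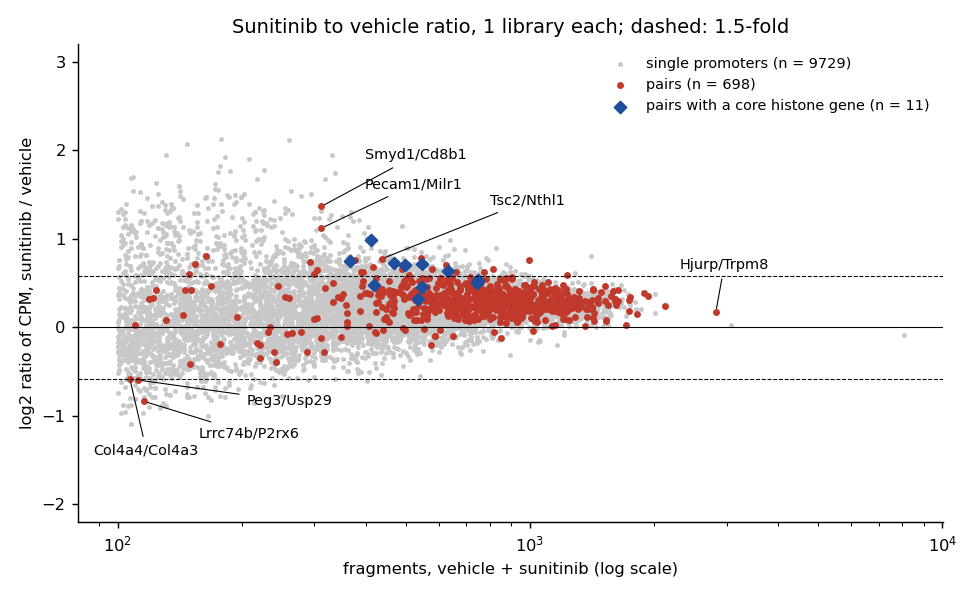
Log2 ratio of sunitinib to vehicle, in CPM (vertical axis), against the fragments of both libraries (horizontal axis, log scale), with 1 point per region and dashed lines at 1.5-fold. Pairs are red, the 11 pairs with a core histone gene are blue diamonds, and 9729 single promoters are grey. Most pairs lie in a band around 0.29, and the 11 histone pairs lie between 0.32 and 0.99.

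Among the pairs whose intervals excluded 0, the highest ratio was at Smyd1/Cd8b1 in chr6:71321733-71323288. Cd8b1 codes for the CD8 beta chain of cytotoxic T cells and Smyd1 for a methyltransferase of heart and skeletal muscle. It held 73 fragments under vehicle and 239 under sunitinib, a log2 ratio of 1.37 (0.99 to 1.77). Pecam1/Milr1 in chr11:106750128-106751726 followed with 83 and 229 fragments, a log2 ratio of 1.12 (0.76 to 1.51). Pecam1 is an adhesion molecule of endothelium and leukocytes, and Milr1 an inhibitory receptor of mast cells. Then came Hist1h2bl/Hist1h2ai with 117 and 295 fragments and 0.99 (0.68 to 1.32), a pair of an H2B and an H2A gene. Ddx25/Pus3 held 51 and 113 fragments (0.80), 4933427D14Rik/Txndc17 171 and 372 (0.78), Tsc2/Nthl1 138 and 299 (0.77), Fig4/Ak9 317 and 679 (0.76), and Amdhd1/Ccdc38 120 and 257 (0.76). Tsc2 restrains mTORC1 signalling and Nthl1 is a glycosylase of base excision repair. Pus3 modifies tRNA, Fig4 is a phosphoinositide phosphatase, and Amdhd1 acts in histidine breakdown.

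Over the 8 groups, both leading pairs had most of their fragments in T lymphoid-like nuclei. Fragments in unnamed nuclei and in barcodes not called as nuclei have no group and are not in these counts. Smyd1/Cd8b1 held 152 of its 177 fragments over the 8 groups in these nuclei and 4 in cardiomyocyte-like nuclei. Within T lymphoid-like nuclei it held 21 fragments under vehicle and 131 under sunitinib, a log2 ratio of -0.04 (-0.68 to 0.73) of CPM in that group. Pecam1/Milr1 held 105 of 149 in T lymphoid-like nuclei, 17 in myeloid-like and 9 in vascular endothelial-like nuclei. Within the T lymphoid-like group it held 12 and 93, a ratio of 0.25 (-0.57 to 1.31), and outside the lymphoid groups its ratio was -0.05 (-0.86 to 0.78).

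The muscle and endothelial genes of these pairs had their own starts elsewhere. A window of 500 bp to either side of the nearest well-supported coding start of Smyd1, 59952 bp from the paired 5′ end, had 15.2 CPM in cardiomyocyte-like and 1.16 in T lymphoid-like nuclei. The same window at the paired 5′ end had 1.90 and 28.8. For Pecam1 the coding start lay 35234 bp away, with 18.3 CPM in vascular endothelial-like and 1.16 in T lymphoid-like nuclei, against 1.09 and 28.2 at the paired 5′ end. Both pairs thus rest on the annotated 5′ end of an upstream transcript.

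Many of the pairs with a high sunitinib ratio had their highest level in T lymphoid-like nuclei. Of the 29 pairs past 1.5-fold, 26 had at least 100 fragments in the 8 groups, and 19 of these (73.1%) were highest there, against 257 (37.1%) of all 692 pairs with that minimum. Over these 692 pairs, the excess of T lymphoid-like nuclei correlated with the sunitinib ratio at r = 0.65 (Pearson) and 0.53 (Spearman), and with the ratio outside the lymphoid groups at 0.15 and 0.11. These are correlations across regions, which are not replicates, and the nuclei's fragments are part of the libraries' fragments. Outside the lymphoid groups the median of the 29 pairs was 0.28 (range -0.24 to 0.72), against -0.01 over all pairs. In those nuclei 1 pair was at least 1.5-fold higher and 1 lower among 688, with 0.483% and 0.52% of single promoters.

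At the lower end, Lrrc74b/P2rx6 (P2rx6 is an ATP-gated channel) held 68 fragments under vehicle and 48 under sunitinib, a log2 ratio of -0.84 (-1.41 to -0.29). Peg3/Usp29, imprinted genes expressed from the paternal copy, held 61 and 51, a ratio of -0.59 (-1.16 to -0.04). Col4a4/Col4a3, whose products are chains of basement membrane collagen, held 58 and 49 in chr1:82586349-82587421, a ratio of -0.58 (-1.16 to -0.01), just short of 1.5-fold. Gm10447/Shroom1 held 123 and 119 (-0.39, -0.76 to -0.01). In nuclei outside the lymphoid groups the ratio of Lrrc74b/P2rx6 was -1.16, with an interval that stayed wholly below 0. There Peg3/Usp29 had -0.47, Gm10447/Shroom1 -0.24 and Col4a4/Col4a3, with 25 and 18 fragments, -0.77. Each of these last intervals included 0, so a decrease of these pairs in those nuclei is not settled. Of the 709 intervals, 4 lay wholly below 0 (0.564%) and 527 wholly above it (74.3%), against 2.48% and 53.2% of single promoters. Scaled to the single promoters' median ratio, 43 pairs lay below (6.06%) and 75 above (10.6%), against 12.1% and 10.2%. The remaining 4 pairs of the 8 lowest with intervals off 0 had positive ratios: Ttc9c/Hnrnpul2 (0.15), Smim7/Tmem38a (0.16), Nup98/Pgap2 (0.17) and Hjurp/Trpm8 (0.17).

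Within the groups of nuclei the median ratio of the pairs ranged from -0.16 to 0.14. In vascular endothelial-like nuclei 683 pairs had at least 50 fragments, with 13 higher and 5 lower by 1.5-fold (1.90% and 0.732%) and a median of 0.07, against 3.85% and 0.93% of single promoters. In T lymphoid-like nuclei 646 pairs had 60 higher and 36 lower (9.29% and 5.57%), against 11.7% and 8.52%, with a median of 0.02. In fibroblast-like nuclei 495 pairs had 28 and 18 (5.66% and 3.64%), against 7.41% and 3.93%. In cardiomyocyte-like nuclei 77 pairs passed the minimum, with 2 higher and 12 lower (2.60% and 15.6%) and a median of -0.16, against 6% and 7.43% of single promoters and their median of -0.06. Only 1 of these 77 had an interval wholly below 0 and 1 wholly above it. In mural-like nuclei 8 of 63 pairs were higher and 3 lower (12.7% and 4.76%), against 6.98% and 9.52%. Their median was 0.14, against -0.02 of single promoters, and 6 intervals lay wholly above 0 and none below. In endocardial-like nuclei 3 of 58 were higher and 2 lower, against 11.8% and 5.42%, and in myeloid-like nuclei 2 of 43 were higher and 5 lower, against 9.29% and 2.86%. Intervals wholly above and below 0 numbered 34 and 8 in vascular endothelial-like, 11 and 7 in fibroblast-like, 10 and 10 in T lymphoid-like, 0 and 1 in endocardial-like and 0 and 3 in myeloid-like nuclei.

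The list of core histone genes, whose promoters are mostly active while DNA is copied, had the highest paired share among the 12 lists. Drawn by symbol, it also took in linker histones and variants such as H2afz. Of its 73 genes on these chromosomes, 27 (37.0%) were in 14 pairs. In 13 pairs both genes were histones, mostly an H2A facing an H2B. The regions of the 14 pairs held fewer fragments, with a median of 157 and percentile 65.8 under vehicle, against 297 and 86.8 over all pairs. Among them are Hist1h2bq/Hist1h2ao and Hist1h2ap/Hist1h2br, which held no fragment. As these lie among near-identical copies where reads can be lost, the part of such loss in the lower level was not tested. Windows of the 14 pairs had a median of 3.17 CpG per 100 bases against 8 over all pairs. CCAAT was present in 14 of 14 and TATA in 9 of 14, against 44.4% and 4.51% of all pair windows.

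Of the 11 histone pairs with at least 100 fragments, 6 were at least 1.5-fold higher under sunitinib and none lower, against 4.09% of all pairs and 8.07% of single promoters that were higher. Their median log2 ratio was 0.63, with a range of 0.32 to 0.99. Scaled to the single promoters' median ratio, only Hist1h2bl/Hist1h2ai (0.73) was past 1.5-fold, and the median was 0.37 with a range of 0.061 to 0.73, against a median of 0.027 over all pairs. After Hist1h2bl/Hist1h2ai the highest were Hist1h2bf/Hist1h2ad with 117 and 249 fragments (0.75), Hist1h2ak/Hist1h2bn with 151 and 317 (0.73) and Hist1h2ae/Hist1h2bg with 177 and 369 (0.72). The lowest was Bola1/Hist2h2ab with 207 and 328 (0.32), where Bola1 is a mitochondrial protein. Outside the lymphoid groups the same 11 pairs held 1107 and 1513 fragments, with a median ratio of 0.15 and a range of -0.24 to 0.52. In vascular endothelial-like nuclei the median was 0.27, and within T lymphoid-like nuclei it was 0.50. The latter rests on few vehicle fragments per pair, as that group held 472222 fragments in all under vehicle and 2968987 under sunitinib. Whether it reflects a rise within the group was not tested. Of the 11 pairs, 5 had their highest level in T lymphoid-like nuclei. By group, the median histone pair had 20.5 CPM in T lymphoid-like, 19.3 in myeloid-like, 15.5 in vascular endothelial-like and 7.27 in cardiomyocyte-like nuclei. All pairs had 31.2, 29.8, 27.3 and 18.6 in that order.

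**Figure D4:**
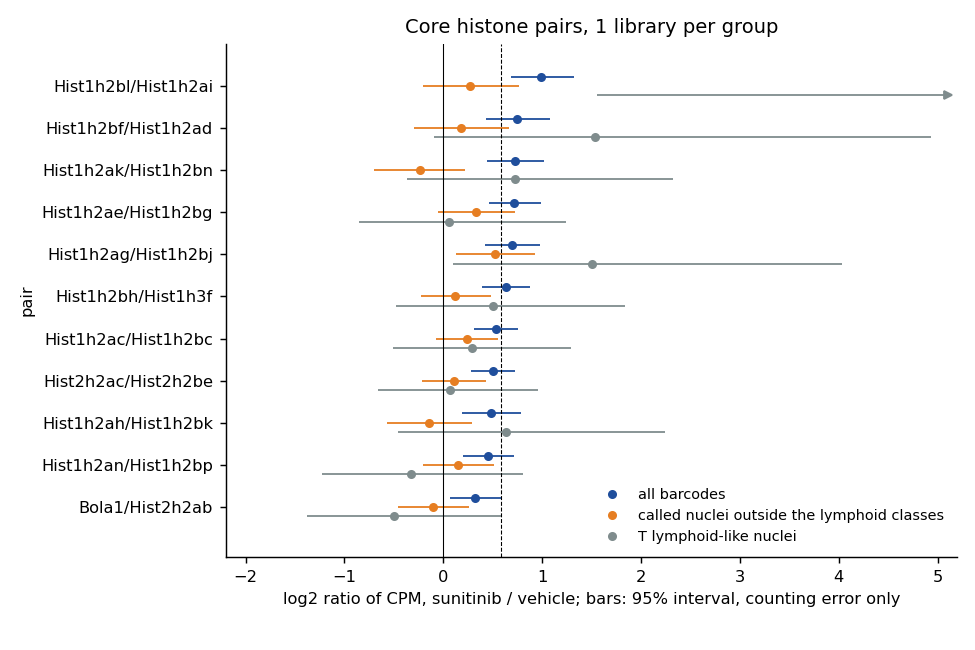
Log2 ratio of sunitinib to vehicle, in CPM (horizontal axis), for the 11 core histone pairs with at least 100 fragments, in all barcodes, in called nuclei outside the lymphoid groups and in T lymphoid-like nuclei. Bars are 95% intervals for counting error, the dashed line is 1.5-fold, and the arrow marks an interval with no upper end because vehicle held 0 fragments. The 11 points for all barcodes lie between 0.32 and 0.99, where the median over all pairs was 0.29. Those outside the lymphoid groups lie between -0.24 and 0.52.

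Genes of mitochondria were also common among the pairs. Of 91 genes of the respiratory chain and ATP synthase 22 (24.2%) were paired, and of 78 genes of the mitochondrial ribosome 18 (23.1%), against 6.96% of all protein-coding genes. The 22 respiratory pairs had a median percentile of 81.6 under vehicle and ratios from 0.14 to 0.56, with a median of 0.36. None was past 1.5-fold, which for 22 pairs is near the 4.09% higher and 0.282% lower over all pairs. Uqcrh/Lrrc41, with a subunit of complex III, held 492 and 789 fragments (0.34), Gm27021/Cox4i1, with a subunit of cytochrome oxidase, 383 and 575 (0.25), and Sdhd/Timm8b 250 and 444 (0.49). The 18 mitochondrial ribosome pairs ranged from 0.17 to 0.53 with a median of 0.32, and Mrps12/Sars2 held 334 and 519 (0.30). YY1 matches were in 4 of the 15 of these pairs that had a promoter window. The 4 pairs of the import list ranged from 0.15 to 0.52.

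DNA repair and replication gave 32 pairs with 33 of 114 listed genes (28.9%). The CCAAT box was in 19 of the 26 with a promoter window (73.1%), against 44.4% of all pairs, and ETS in 12 (46.2%) against 28.3%. In Atm/Npat (a kinase of the damage response facing a coactivator of histone genes) and Mcm4/Prkdc (a helicase subunit facing the DNA-dependent kinase) both genes were on the list. Atm/Npat held 479 and 751 fragments (0.31) and Mcm4/Prkdc 451 and 770 (0.43). Brca1/Nbr1 held 504 and 733 (0.20) and Aimp2/Pms2 280 and 384 (0.12). The 32 ratios ranged from -0.07 at Rad54l/Pomgnt1 to 0.77 at Tsc2/Nthl1, with a median of 0.32. Tsc2/Nthl1 was the only one past 1.5-fold, 1 of 32 against 4.09% of all pairs, and scaled to the single promoters' median ratio (0.51) none was.

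Of the other lists, 5 had median percentiles from 83.4 to 92.3 under vehicle, against 86.8 over all pairs. Cilium and basal body genes gave 19 pairs at a median percentile of 92.3, led by Cep57/Fam76b with 739 and 1195 fragments (0.35). RNA polymerase and splicing genes gave 20 pairs (87.1), translation factors and tRNA ligases 11 (90.5), cytosolic ribosomal proteins 9 (84.4) and the proteasome 5 (83.4). None of these 5 lists had a pair past 1.5-fold in either direction, against 4.09% higher and 0.282% lower over all pairs. With so few pairs per list, none is near that share. Psmb1/Tbp, a proteasome subunit facing the TATA-binding protein, held 199 and 370 (0.55), and Gart/Son 414 and 692 (0.40). Among 20 basement membrane collagens and laminins Col4a4/Col4a3 was the only pair, and it lay far below the others, at percentile 52.0 with a ratio of -0.58 against a median of 0.29 over all pairs.

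Of 54 genes of heart muscle, 3 were paired (5.56%), near the 6.96% of all protein-coding genes. Cdc27/Myl4 held 330 and 507 fragments (0.28) and Myl12b/Myom1 483 and 725 (0.25), where Myl4 is the atrial myosin light chain and Myom1 holds the M-band of the sarcomere. Klc3/Ckm, with the muscle creatine kinase, held 94 and 199 (0.74), and 76 of its 148 fragments over the groups were in T lymphoid-like against 5 in cardiomyocyte-like nuclei. The paired Ckm 5′ end lay 6249 bp from its well-supported coding start. That start had 8.22 CPM in cardiomyocyte-like nuclei and 0 among T lymphoid-like nuclei. For Myom1 the corresponding start, 16888 bp away, had 14.5 CPM in cardiomyocyte-like and 0.581 in T lymphoid-like nuclei, while the paired 5′ end was open in all 8 groups.

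Pair regions varied little between groups of nuclei. Levels in CPM of each group, with 0.5 fragments added, had a median standard deviation over the 8 groups of 0.37 on the log2 scale in 692 pairs and 0.44 in 8321 single promoters. A standard deviation of at least 1 was seen in 17 pairs (2.46%) against 11% of single promoters. Much of this gap went with depth. Among regions with 100 to under 200 fragments the shares were 39.3% of 28 pairs and 39.3% of 1551 single promoters, and with 400 to under 800 fragments the median standard deviation was 0.35 in both. From 200 to under 400 fragments the shares were 2.99% and 8.15% of 3558 single promoters. The group with the highest level was T lymphoid-like in 257 pairs, myeloid-like in 232, epicardial-like in 87, mural-like in 49, vascular endothelial-like in 41, endocardial-like in 19, cardiomyocyte-like in 6 and fibroblast-like in 1.

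The widest spreads over the groups were at Pecam1/Milr1 (1.78) and Smyd1/Cd8b1 (1.69). Gm10447/Shroom1 (1.68; Shroom1 binds actin) had 12.9 CPM in vascular endothelial-like and 16.3 in endocardial-like against 0.728 in T lymphoid-like nuclei. Pcdh12/Rnf14 (1.63), with an endothelial protocadherin, had 127 fragments in vascular endothelial-like nuclei and 3 in T lymphoid-like. Sncg/Mmrn2 (1.61), with an endothelial multimerin, had 68 in vascular endothelial-like, 16 in mural-like and 0 in myeloid-like nuclei. Sobp/9030612E09Rik (1.64) had 15.9 CPM in mural-like and 13 in cardiomyocyte-like nuclei, with no fragment in myeloid-like nuclei. Ppp1r3d/Fam217b (1.5) had 140 fragments in vascular endothelial-like and 3 in T lymphoid-like nuclei. Cks1b/Shc1 (1.43) had 0 fragments in the small epicardial-like group, and in the other 7 groups it lay between 14.8 and 21.4 CPM. The smallest spread was at Hnrnpd/4930524J08Rik (0.093), which had 35.2 to 44.3 CPM in every group, where Hnrnpd binds AU-rich RNA. Eef1d/Tigd5, Ccdc115/Imp4 and Ppp1r15a/Plekha4 followed.

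**Figure D5:**
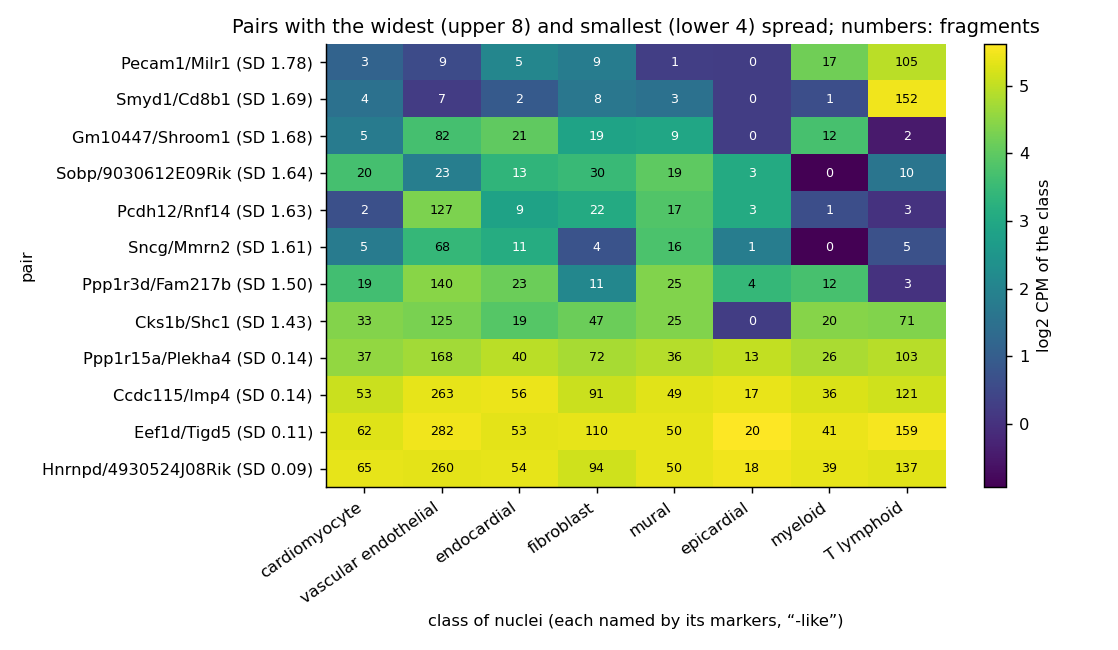
CPM in each of 8 groups of nuclei (colour, log2 scale, 0.5 fragments added), for the 8 pairs with the widest and the 4 with the smallest standard deviation over the groups, with vehicle and sunitinib summed and the number of fragments in each cell. The first and second pair peak in T lymphoid-like nuclei, several others in vascular endothelial-like nuclei, and the lowest 4 pairs are even across all groups.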

How the data were processed

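The ATAC fragment files of 3 libraries were used. Per the file headers, the authors ran cellranger-arc on the mm10 genome, in version 2.0.2 for the library with Yoda1 and 2.0.0 for the others. The submitters' processing notes name Cell Ranger, Signac and mm10. The deposited value is a raw count: the read pairs that support a unique fragment in a barcode, with no barcode removed. Groups came from the sample titles and the design text.

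Gene 5′ ends came from GENCODE M21 gene features. Every fragment overlapping a region was counted once. Nuclei were barcodes with 1000 or more fragments, start-site enrichment of 4 or more, and under 4 fragments of 150 to under 300 bp for each shorter one, and doublets were not removed. Nuclei of vehicle and sunitinib were clustered by latent semantic indexing of 60000 tiles of 5000 bp without protein-coding starts (30 components, 20 neighbours, Leiden resolution 0.8). Of the 15 clusters, those without a clear set of at least 3 markers stayed unnamed, among them 1 with T and B lymphoid markers that was left out together with the T lymphoid-like group where nuclei outside the lymphoid groups are given. Class names may differ from the study's own.

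Ratios of CPM (per 1000000 fragments on the autosomes and X) had 0.5 added to each count, with 95% intervals from the exact binomial given the sum. Intervals of shares are Clopper-Pearson. On simulated counts 95.5% of intervals held the true ratio. Promoter and span sequences came from a table of RefSeq promoter windows on GRCm38.p6, joined by symbol or Entrez identifier.

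The members, lists and markers were chosen with earlier results of these data known. Pairs named were the 10 with most and 5 with fewest fragments per kb, the 8 highest and 8 lowest ratios with an interval off 0, known head-to-head pairs (13 of 35 tried were members), up to 4 pairs per list, the 8 widest and 4 smallest spreads over groups, and the 3 pairs on each side of the distance limit. A few other pairs (Rad54l/Pomgnt1 and those with a histone gene) were named after their values were seen. A pair that the rule names is not reported here. Clustering used leidenalg 0.10.2 and igraph 0.11.9 in Python 3.11.15 with scipy 1.17.1. Alternatives covered what was counted, which barcodes, fragment length, window placement, comparison set, scaling, minimum count, class definition and the third library's fragments. The alternative that needs CpG along the whole region was not run, because no genome sequence was used here, and CpG of the first transcribed bases took its place. That choice, the division by start sites, both of these together, the split by coding starts, the run without the epicardial-like group and the background of all promoter windows were chosen after seeing the data.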

Additional observations from a re-analysis of the deposited data

How the results depend on the processing

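Most pairs stayed above the single promoters' median in each setting but 1. Division by 2 start sites together with CpG matching left 39.7% (vehicle) and 38.9% (sunitinib) above it. Matching for CpG alone left 88.7% (vehicle) and 88.5% (sunitinib) above it, division by 2 start sites alone 92.8% and 93.1%, well-supported coding starts at both ends 97.7% and 97.5%, and a distant start 89.2% and 90.2%. The count of pairs at least 1.5-fold higher under sunitinib was 3 with scaling to the single promoters' median ratio and 3 with scaling to fragments in their windows. It was 7 in called nuclei, 1 outside the lymphoid groups and 75 with fragments shorter than 150 bp. The lower count was 6 and 6 under both scalings, 4 with a minimum of 50 fragments, 0 with 200, 6 with none, 5 with cut sites, 1 outside the lymphoid groups and 0 with short fragments.

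Some named ratios changed sign, in the order of median scaling, window scaling, called nuclei and nuclei outside the lymphoid groups. Hjurp/Trpm8 gave -0.089, -0.074, -0.084 and -0.11. Smim7/Tmem38a gave -0.10, -0.089, -0.10 and -0.29. Ttc9c/Hnrnpul2 gave -0.11, -0.099, -0.034 and -0.078. Nup98/Pgap2 gave -0.092, -0.077 and -0.0060 in the first 3 settings. Pecam1/Milr1 gave -0.051 outside the lymphoid groups. Each of the scalings lowers every log2 ratio by a fixed amount, so positive ratios smaller than that amount turn negative. The cause of the sign changes in the settings with called nuclei was not tested. Of 96 such values for the 16 pairs at both ends, 64 kept direction and interval, and 16 kept direction with an interval that included 0.

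The share of fragments in pair regions was 1.71% (vehicle), 1.79% (sunitinib) and 0.991% (sunitinib plus Yoda1) in called nuclei, and 1.13% and 1.38% with 1 fragment per position. It was 1.02% with all fragments of the third library, and 9.07%, 9.33% and 8.74% of fragments in all promoter windows. Pairs with a standard deviation of at least 1 over groups numbered 10 with nuclei of at least 3000 fragments. With short fragments the density between starts was 3.2 times that of the flanks.

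No paired analysis was possible because each group had 1 library. For the same reason no replicate could be left out. Pairs with under 100 fragments had no ratio, and at 12 nuclei the sunitinib plus Yoda1 library allowed no value per pair or group. Single promoters could not be matched to sequence windows often enough for a comparison of motifs.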

Other observations

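Among the named pairs, 11 paired 5′ ends that lay over 1000 bp from a well-supported coding start were read against that start by group of nuclei. The report gives those of Smyd1, Pecam1, Ckm, Myom1 and Trpm8, and the other 6 follow. The paired 5′ end of Gdf9, an oocyte growth factor facing Uqcrq of complex III, held 445 and 714 fragments under vehicle and sunitinib, and its coding start 2276 bp away held 5 and 13. For Psmb1 the paired end and the coding start 1453 bp away were similar, with 195 and 366 against 203 and 319. For Frs3, an adaptor of growth factor receptors, the paired end held 126 and 156 and the coding start 6168 bp away 355 and 477. The paired end of Rnf14 had 18.6 CPM in vascular endothelial-like and 0.872 in T lymphoid-like nuclei, while its coding start 12098 bp away had 32.2 and 22.4. The 4930430F08Rik start that faced 1700017N19Rik held 6 and 7 fragments, against 129 and 229 at its coding start 1028 bp away. Its partner 1700017N19Rik held the same 6 and 7 at the paired end and 6 and 5 at its coding start 1901 bp away.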
